A study of Homo sapiens with 6 samples.

Results

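The genes described here are 9 drug efflux transporter genes (ABCB1, ABCB4, ABCC1, ABCC2, ABCC3, ABCC4, ABCC5, ABCC10 and ABCG2), taken by symbol from the 40205 gene symbols of the count table, in which all 9 were found. They belong to a study of the human hepatoma line HepG2, in which RNA-seq was run on 3 control libraries (Control-1 to Control-3) and on 3 libraries from cells given cationic liposomes, or CLs (CLs-1 to CLs-3). CLs are lipid vesicles with a positive surface charge that are used to carry nucleic acids or drugs into cells; here they were made of DOTAP, cholesterol and a PEG-coupled lipid. By the sample labels the treated wells received 120 μM CLs for 24 h, a dose chosen for its toxicity in these cells, while the study's text gives the same figure as μM in one place and as μg/ml in others; for the controls no treatment is named. ABCB1 was chosen by its fold change and adjusted p-value in the comparison of CLs with control, and the other 8 genes were added to it for their known function. The values of that comparison are therefore given for these genes as a description and not as independent evidence. Nothing in the labels says that the 3 libraries of a group came from separate cultures, so their spread may be technical.

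ATP-binding cassette (ABC) efflux transporters use ATP to move substrates across a membrane and out of the cell. ABCB1 (P-glycoprotein, MDR1) and ABCG2 (BCRP) extrude many unrelated hydrophobic compounds, and the ABCC members (MRPs) export organic anions, many of them conjugated to glutathione, glucuronate or sulfate. In hepatocytes ABCB1, ABCB4, ABCC2 and ABCG2 lie in the canalicular membrane and export into bile, whereas ABCC3 and ABCC4 lie in the basolateral membrane and export towards blood.

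The RefSeq promoter table lists a pair of starts for ABCB1, the gene on which the results turn, and the counts per symbol do not separate the transcripts of one start from those of the other. The table is on GRCh38.p14, whereas the submitters' processing notes name hg19, so these positions describe the reference sequence and were not used to read the counts. The 250 bases before each start are shown because they hold different motifs. Capitals mark CCAAT (the CCAAT box) and GCGTG (the core bound by the aryl hydrocarbon receptor), each searched on both strands, so that CCAAT on the other strand reads ATTGG here; no match overlaps another. The first window lies at chr7:87713296-87713545 on the minus strand, and the other at chr7:87600885-87601134 on the minus strand, 112411 bases closer to the 3′ end of the gene.

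ABCB1, far upstream start: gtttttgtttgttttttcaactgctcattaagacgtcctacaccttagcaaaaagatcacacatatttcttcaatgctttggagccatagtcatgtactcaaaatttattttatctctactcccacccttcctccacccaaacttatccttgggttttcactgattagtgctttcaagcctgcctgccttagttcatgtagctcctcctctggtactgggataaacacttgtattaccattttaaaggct

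ABCB1, start near the coding exons: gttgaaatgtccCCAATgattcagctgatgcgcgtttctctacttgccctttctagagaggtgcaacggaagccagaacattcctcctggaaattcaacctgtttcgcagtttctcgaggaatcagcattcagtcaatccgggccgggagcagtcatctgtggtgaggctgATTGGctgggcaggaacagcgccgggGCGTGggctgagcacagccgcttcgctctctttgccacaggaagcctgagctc

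The window near the coding exons has a GC content of 55.6%, with CCAAT in 2 places, 238 and 79 bases before the start, and GCGTG 53 bases before it. The far upstream window has a GC content of 39.2% and neither motif. CCAAT occurs in 32.0% and GCGTG in 32.2% of the 35116 windows of the table, so both are common. Neither window holds GGGCGG (the GC box, in 42.6% of windows), TATAAA (the TATA box, 10.7%) or TGACNNNGC (the antioxidant element, 10.9%). Of the members, 6 have an entry in the table, and ABCB1 is the member of these 6 with CCAAT in a window. These matches describe letters in a window and say nothing of binding.

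Between 11418527 and 13998946 reads per library were counted on genes. Values are CPM, the reads of a gene per mega-read of the library total after TMM scaling, which corrects totals for differences in composition. The label HepG2 was checked against 21 hepatocyte and HepG2 markers. Their summed level was 7.80 to 8.53 CPM in the control group and 6.04 to 16.9 CPM in the CLs group, and FOXA1 was the single marker that passed the filter on low counts. Albumin (ALB) had 0 reads in 5 libraries and 8 in CLs-1, alpha-fetoprotein (AFP) had at most 1 read in any library, and TTR, APOC3 and APOH had 0 in all 6. Of the 21 markers, 9 were at or under the floor of 3 counts in every library. CLs-1 was the library with most of them over the floor, 11 of 21, and had 51 counts of APOA1, 38 of SERPINA1, 15 of FGG, 13 of FGA and 12 of FGB, where the other libraries had at most 2 counts of APOA1, 7 of SERPINA1 and 1 of each fibrinogen gene; AMBP was highest in CLs-3, at 12 counts. The cells are called by their label below without a claim on their type. CLs-1 stood apart by markers of other cell types as well. In that library the 5 erythroid markers summed to 477 counts, against 4 or fewer in each of the others, and the 5 steroidogenic markers to 482 counts, against 11 to 32. Of the 8 fibroblast markers, COL1A2 reached 1044 counts in this library against 2 or fewer in each of the others, while the summed level of the list was 728.6 to 1096 CPM in the control group and 806.2 to 952.4 CPM in the CLs group. Most of that sum was COL3A1, at 7456 to 11358 counts per library, and COL1A1 and PDGFRB were also above the floor in all 6. Outside CLs-1, DCN, LUM, THY1 and PDGFRA had at most 5 counts. The 4 endothelial markers summed to at most 0.437 CPM in every library except Control-3, which had 3.68 CPM, and of the 5 leukocyte markers CD68 was the single one above the floor.

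ABCB1 transcripts were lower in every CLs library than in every control library, at 0.241 of the control level. The 3 controls, in the order of their numbers here and below, had 93, 118 and 131 ABCB1 reads, and the 3 CLs libraries had 30, 27 and 31. As CPM this was 8.06, 10.2 and 11.2 in the controls and 2.07, 2.33 and 2.71 after CLs. The lowest control stood well above the highest CLs library. In bulk libraries, fewer cells that express the gene and less RNA per cell cannot be told apart.

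The mean of ABCB1 was 9.81 ± 1.61 CPM (SD, n = 3) without CLs and 2.37 ± 0.321 CPM with CLs (SD, n = 3). The log2 fold change was -2.05 (standard error 0.24, 95% interval -2.58 to -1.52) from edgeR's quasi-likelihood test fitted on 15047 genes. Its adjusted p of 0.013 from that fit is one of the values that chose the gene. A gene was called where the Benjamini-Hochberg adjusted p was under 0.05 and the fold above 1.5 or below 0.67. By this rule 1 of the 9 transporters was called, ABCB1, against 0.0864% of all genes tested in either direction, 0.0731% lower and 0.0133% higher. Ordered by size, the ABCB1 decrease ranked 6 among the 15047 genes. The call was lost in 3 of the 6 fits that left out 1 library, with log2 fold changes of -2.02 without Control-2, -1.96 without CLs-1 and -2.04 without CLs-2 and adjusted p-values of 0.0724, 0.0611 and 0.0929 from edgeR's quasi-likelihood test.

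The depth behind ABCB1 is low after CLs. Exact 95% Poisson intervals, which cover counting error only, ran from 1.40 to 2.96 CPM in CLs-1 and from 6.51 to 9.88 CPM in Control-1, the libraries with the lowest value of each group. The coefficient of variation of ABCB1 between CLs libraries was 13.5%, below the 18.5% that counting alone gives at about 29 reads. Between control libraries it was 16.4%, against 9.37% from counting.

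The ratio of ABCB1 to another transporter in the same library uses the same counts without a scaling factor. For each 100 reads of ABCC1, ABCB1 had 4.95, 5.46 and 6.21 reads in the 3 controls and 1.16, 1.41 and 1.52 reads in the 3 CLs libraries. Of the summed per-length level of the 9 genes, ABCB1 held 1.88% ± 0.179 in the controls and 0.36% ± 0.0203 after CLs (SD, n = 3). That sum was itself higher after CLs, at 133.1 against 105.0 CPM per kb, so the share fell by more than ABCB1 did.

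**Figure D1:**
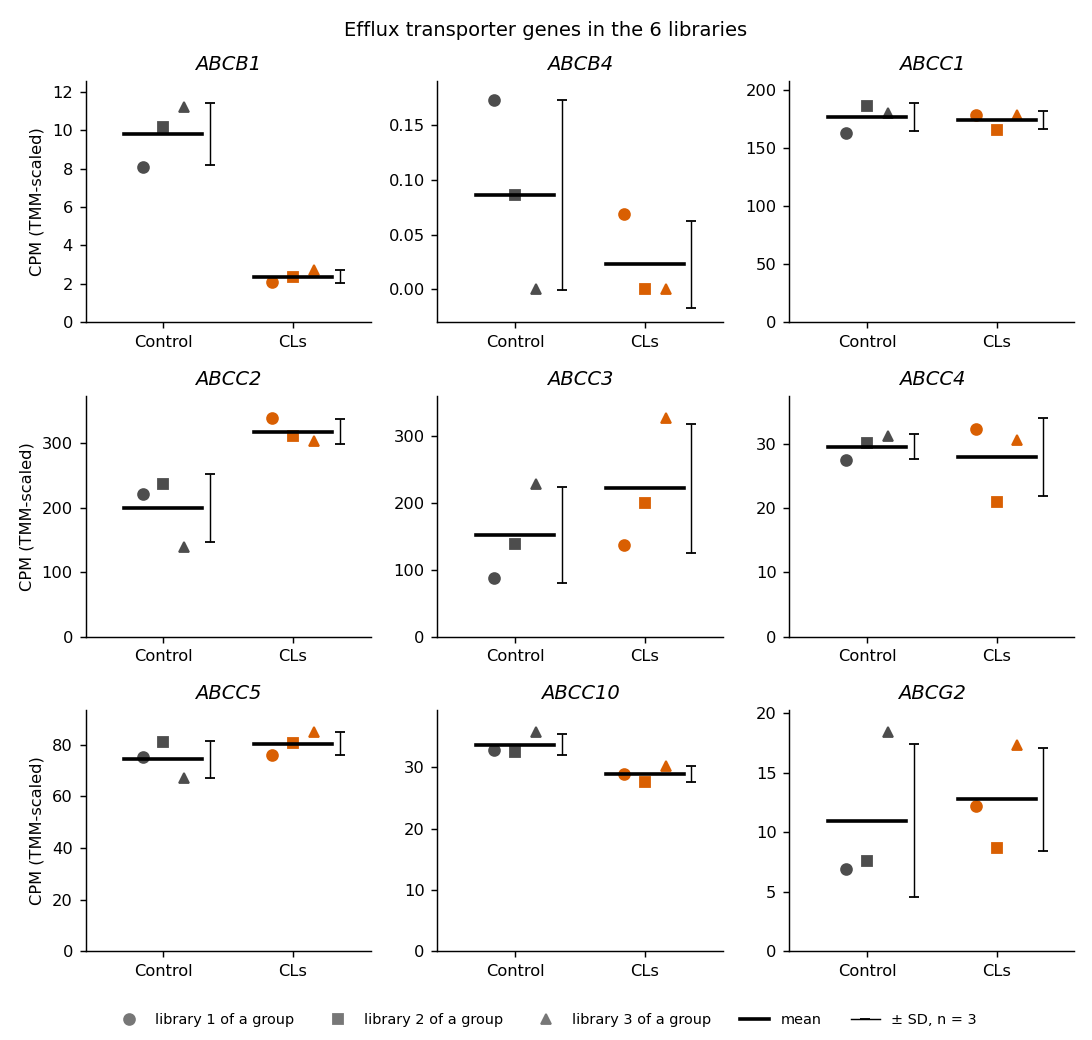
CPM (TMM-scaled) of the 9 efflux transporter genes, 1 panel a gene; points are the libraries of the control (grey) and CLs (orange) groups, bars the group means and whiskers the SD (n = 3). ABCB1 falls from 9.81 to 2.37 CPM with no overlap, ABCC2 is higher in all 3 CLs libraries, and ABCB4 is at the floor.

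ABCB4, the canalicular phosphatidylcholine flippase and the closest relative of ABCB1, was at the floor in all 6 libraries. Its counts were 2, 1 and 0 in the controls and 1, 0 and 0 in the CLs libraries. It did not pass the filter on low counts, and no fold change is given. How the counting treated reads that match both of these paralogs is not given in the sources used here.

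ABCC2 (MRP2), the canalicular exporter of conjugates such as bilirubin glucuronide, was higher in every CLs library than in every control. Its CPM was 221.9, 236.5 and 139.3 in the controls and 339.8, 311.2 and 303.3 after CLs. Control-3 was well below the other controls, while the 3 CLs libraries lay close together. For ABCC2 the log2 fold change was 0.68 (standard error 0.19, 95% interval 0.27 to 1.09), and the adjusted p over all genes was 0.327 in edgeR's quasi-likelihood test, so ABCC2 was not called. The unadjusted p was 0.00396. Before adjustment, p was below 0.05 in that test for 2 of the 8 transporters tested, against 5.81% of all genes tested. These were ABCB1, which was chosen by this comparison, and ABCC2. With no filter on low counts the log2 fold change of ABCC2 was also 0.68 and edgeR's test called it, at an adjusted p of 0.0289. That fit called 171 genes over the whole table, 58 of them higher, against 13 and 2 in the main fit. In DESeq2's Wald test ABCC2 was not called, at an adjusted p of 0.0506.

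ABCG2, a half-transporter that works as a dimer, had 6.93, 7.58 and 18.4 CPM in the controls and 12.2, 8.71 and 17.3 CPM in the CLs libraries. The groups overlapped fully, and in each group the library numbered 3 was the highest. Its coefficient of variation in the control group was 58.7%, against 8.85% from counting, and its log2 fold change was 0.22 with a 95% interval from -0.59 to 1.02. These libraries therefore leave a change of ABCG2 in either direction within the interval.

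ABCC3 (MRP3), a basolateral exporter of glucuronides, showed the same high value in the libraries numbered 3. It had 88.3, 138.1 and 228.5 CPM in the controls and 137.3, 200.1 and 327.0 CPM in the CLs libraries. Its log2 fold change was 0.55 (standard error 0.34, 95% interval -0.21 to 1.30; edgeR's adjusted p = 0.95). The groups overlapped, and the coefficients of variation were 46.9% and 43.6%. At each library number, however, ABCC3 was higher in the CLs library than in the control, although the labels name no pairing. A further edgeR fit that included a term for library number gave ABCC3 a log2 fold change of 0.56 (standard error 0.13). Its quasi-likelihood test gave an unadjusted p of 0.000968 and an adjusted p of 0.110, so ABCC3 was not called there either. ABCC2 ran the other way in the libraries numbered 3, being lowest in Control-3 and CLs-3. For each 100 reads of ABCC3, ABCC2 had between 61.0 and 251.2 reads in the controls and between 92.8 and 247.5 reads in the CLs libraries.

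ABCC4 (MRP4), which exports cyclic nucleotides and other organic anions, had 27.4, 30.1 and 31.2 CPM in the controls and 32.3, 21.0 and 30.6 CPM after CLs. CLs-2 was the low library, and the other CLs libraries lay within or just above the range of the controls. For ABCC4 the log2 fold change was -0.08, with a 95% interval from -0.47 to 0.32.

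ABCC1 (MRP1), the exporter of leukotriene C4 and glutathione conjugates, had the narrowest interval around 0 of the 3 most abundant members. It had 162.9, 186.3 and 180.5 CPM in the controls and 178.8, 165.4 and 178.0 CPM in the CLs libraries. For ABCC1 the log2 fold change was -0.02, and the 95% interval from -0.30 to 0.25 holds no fold beyond the criteria. ABCC5 (MRP5), another cyclic nucleotide exporter, had 74.4 ± 7.11 CPM in the controls (SD, n = 3) and 80.4 ± 4.40 CPM after CLs (SD, n = 3). Its interval, from -0.18 to 0.40, likewise stayed inside the criteria.

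ABCC10 (MRP7) had 32.9, 32.5 and 35.7 CPM in the controls and 28.8, 27.6 and 30.2 CPM in the CLs libraries. Every CLs library lay below every control, but by little. For ABCC10 the log2 fold change was -0.22 (95% interval -0.53 to 0.08) and the adjusted p was 0.945 in edgeR's quasi-likelihood test. Of its 5469 exonic bases, 79 are shared with DLK2 on the opposite strand, and the strand setting of the counting is not given in the sources used here. In all, the groups did not overlap for 3 of the 8 genes tested, among them ABCB1, which was chosen by this comparison. ABCB1 and ABCC10 were lower after CLs and ABCC2 was higher, where 6.18% of all genes tested were lower without overlap and 5.34% higher. At this group size the smallest p that exact permutation of the libraries can give for one gene, two-sided, is 0.10.

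**Figure D2:**
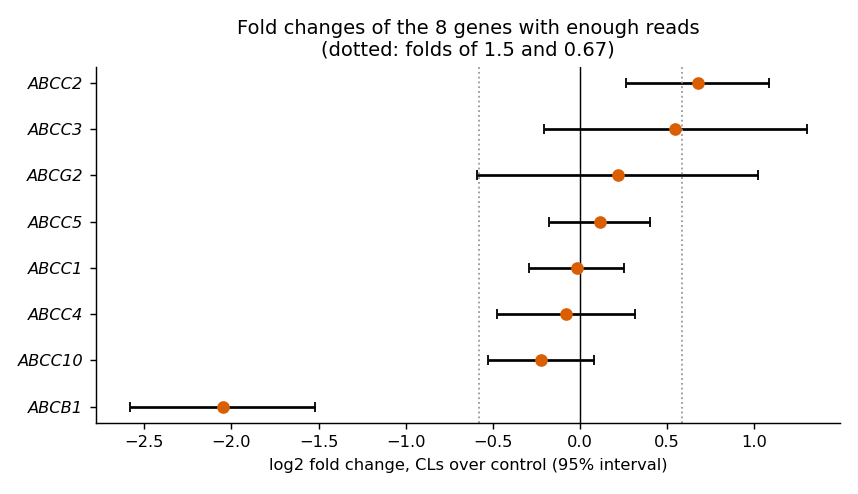
Log2 fold changes (CLs over control) of the 8 transporter genes tested, with their 95% intervals from the edgeR fit; dotted lines mark folds of 1.5 and 0.67. The ABCB1 interval, from -2.58 to -1.52, lies beyond the lower line, and the estimates of the other 7 genes lie between -0.22 and 0.68.

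Each of the 8 tested genes had at least 27 reads in every library, so none passed the filter through 1 group alone. Of these 8, 4 had a log2 fold change above 0 and 4 below, with a median of 0.05 against 0.01 over all genes tested. ABCB1 aside, the estimates lay between -0.22 and 0.68.

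Levels of different genes were compared per kilobase of exon, using exonic lengths from GENCODE release 29. In the control group ABCC2 (32.4 ± 8.52 CPM per kb), ABCC1 (26.8 ± 1.85) and ABCC3 (23.6 ± 11.1) stood highest (SD, n = 3 for each), and neighbours among them overlapped. They ranked at the 83.0, 79.6 and 77.2 percentile of the 13023 tested genes with a length. ABCC5 at 7.06 ± 0.675, ABCC10 at 6.16 ± 0.321 and ABCC4 at 4.71 ± 0.310 CPM per kb formed the middle of the order, in which ABCC5 and ABCC10 overlapped and ABCC4 lay below both. Per kilobase of the longest coding sequence these relations turned, with ABCC5 (15.5 to 18.8) apart from ABCC10 (7.25 to 7.97) and ABCC10 overlapping ABCC4 (6.89 to 7.83). ABCG2 at 2.28 ± 1.34 and ABCB1 at 1.98 ± 0.325 CPM per kb overlapped at its lower end. Per coding length they did not, at 3.52 to 9.35 for ABCG2, which then overlapped ABCC4, and at most 2.92 for ABCB1. ABCB1 therefore was a minor transcript of the set in the control libraries, at the 21.8 percentile of tested genes.

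After CLs the order changed in 1 place. ABCC3 at 34.5 ± 15.1 CPM per kb stood above ABCC1 at 26.4 ± 1.14 (SD, n = 3), although their libraries overlapped. ABCC2 remained first at 51.7 ± 3.12 CPM per kb. ABCB1 fell to 0.479 ± 0.0649 CPM per kb, and its highest CLs library was below the lowest CLs value of ABCG2 by either length. The summed level of the 9 genes was 105.0 ± 8.55 CPM per kb in the controls and 133.1 ± 14.5 CPM per kb after CLs (SD, n = 3), and among the 9 genes ABCC2 and ABCC3 had the largest increases in mean level. ABCC1 held 25.5% ± 0.494 of that sum in the control group and 20.0% ± 1.89 in the CLs group (SD, n = 3).

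**Figure D3:**
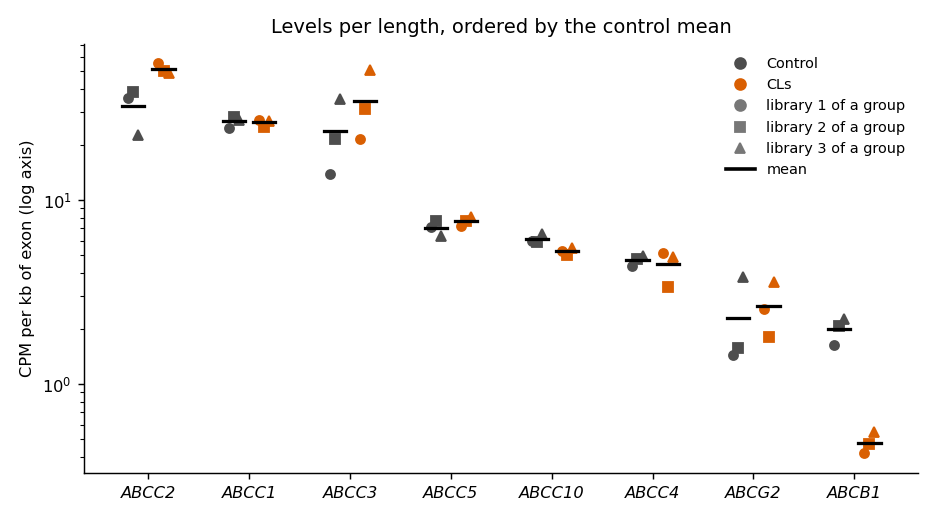
CPM per kb of exon (log axis) of 8 transporter genes in each library, control in grey and CLs in orange, ordered by the control mean (black bars are group means, n = 3); ABCB4, with values at 0, is left out. ABCB1 has a mean of 1.98 CPM per kb in the controls and 0.479 CPM per kb after CLs.

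Further genes of drug handling were described in 6 lists. Over all genes tested, 0.0864% were called, 5.81% had an unadjusted p below 0.05, and 6.18% were lower and 5.34% higher without overlap, so that a count of 0 called in a list of this size is no more than the background gives. The regulators of drug transporter genes ranged from 0 reads to high levels. Of 19 genes, NR1I2 (the pregnane X receptor) and NR1H4 (the bile acid receptor FXR) had 0 reads in all 6 libraries, and NR1I3 (CAR) had 1 read in CLs-1 and 0 elsewhere. AHR, the aryl hydrocarbon receptor, had 67 to 234 reads and VDR, the vitamin D receptor, 758 to 1205 reads per library. Among the 14 regulators tested, edgeR's quasi-likelihood test called 0, DESeq2 called 0, and 0 had an unadjusted p below 0.05. Their median log2 fold change was -0.10. YBX1, a Y-box binding protein, had 1459 ± 279.2 CPM (SD, n = 3) without CLs and 1225 ± 93.8 CPM with CLs (SD, n = 3), and its log2 fold change was -0.25 (adjusted p = 0.958). PPARA had a log2 fold change of -0.29 and NFYB, a subunit of the CCAAT-binding factor NF-Y, of -0.21, with adjusted p-values of 0.98 or more.

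Hepatic uptake carriers were at the floor as well. Of 22 solute carrier genes for drugs, 10 were at or under 3 counts in every library, among them SLCO1B1, SLCO2B1, SLC10A1 and SLC22A7, which bring organic anions and bile acids into hepatocytes. Of the 9 tested, 0 were called by edgeR's quasi-likelihood test and 0 by DESeq2, and 3 had an unadjusted p below 0.05, against 5.81% of all genes tested. SLCO3A1, an organic anion transporter, had 114.7 ± 15.6 CPM in the controls (SD, n = 3) and 81.2 ± 17.9 CPM after CLs (SD, n = 3), a log2 fold change of -0.50 (adjusted p = 0.637). The carnitine transporter SLC22A5 had a log2 fold change of -0.50 (adjusted p = 0.662). SLC47A1 (MATE1), itself an efflux carrier for organic cations, had 30.6 ± 5.17 and 39.2 ± 4.26 CPM, a log2 fold change of 0.36 (adjusted p = 0.855). In these 3 genes the groups did not overlap, with 1 of the 9 higher and 2 lower. SLC29A2, a nucleoside transporter, had a log2 fold change of -0.30.

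Most of the drug-metabolizing enzymes were at the floor. Of 32 genes, 18 were at or under 3 counts in every library, including CYP3A4, CYP2B6 and SULT2A1, enzymes that mark the adult liver. UGT1A1 and UGT1A6 were among them, but these genes share exons, so their counts are uncertain. Of the 11 tested, 0 were called by edgeR's quasi-likelihood test and 0 by DESeq2, 10 had a log2 fold change above 0 and 1 below, against 47.9% of all genes tested below 0, and the median was 0.34. An unadjusted p below 0.05 was found for 2, both higher after CLs, against 5.81% of all genes tested in either direction. NQO1, a quinone reductase, had 563.0 ± 38.0 CPM (SD, n = 3) without CLs and 847.9 ± 227.2 CPM with CLs (SD, n = 3), a log2 fold change of 0.59 (adjusted p = 0.462). MGST1, a microsomal glutathione transferase, had a log2 fold change of 0.38 (adjusted p = 0.855). In NQO1 and MGST1 the groups did not overlap, against 5.34% of all genes tested that were higher without overlap. CYP1B1 and EPHX1 had log2 fold changes of 0.64 and 0.36, with adjusted p-values of 0.865 and 0.89. CYP1B1 was high in CLs-1, at 8.85 CPM, against 4.40 in CLs-2, 4.90 in CLs-3 and 3.53 to 4.62 CPM in the controls.

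The rest of the ABC superfamily, 39 genes, carry lipids, peptides, heme and other cargo or act in translation. Of the 21 tested, 0 were called by edgeR's quasi-likelihood test, 0 by DESeq2 and 0 had an unadjusted p below 0.05, with 10 log2 fold changes above 0 and 11 below and a median of -0.01. Groups overlapped in all 21. TAP1, the peptide transporter of antigen presentation, had a log2 fold change of -0.45 and the lipid transporter ABCA3 of -0.33, with adjusted p-values of 0.869 and 0.872. ABCB6, a porphyrin transporter, had a log2 fold change of 0.30. ABCB11, the bile salt export pump, had 1 read in CLs-1 and 0 elsewhere.

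The genes beside ABCB1 on the chromosome, in RefSeq order, include DMTF1, TMEM243, CROT and ABCB4 on one side and RUNDC3B, SLC25A40, DBF4, ADAM22, SRI and STEAP4 on the other. Of the 11, 9 were tested, 0 passed in edgeR's quasi-likelihood test or in DESeq2, 6 had a log2 fold change above 0, and the median was 0.21. CROT, a peroxisomal carnitine acyltransferase, had 5.95 ± 0.859 CPM in the controls (SD, n = 3) and 8.13 ± 0.510 CPM after CLs (SD, n = 3), without overlap (log2 fold change 0.45, adjusted p = 0.86). Of the 9 tested, 2 were higher without overlap, CROT and TMEM243, and 0 were lower, against 5.34% and 6.18% of all genes tested. STEAP4, a metalloreductase, had a log2 fold change of -0.70 (adjusted p = 0.788) and was the single gene of the list with an unadjusted p below 0.05. STEAP4 was high in Control-3, with 2064 counts against 874 and 1060 in the other controls. SRI (sorcin), a calcium-binding protein, had a log2 fold change of -0.28. RUNDC3B, listed next to ABCB1 in that order, had 1 read in Control-3 and 0 elsewhere.

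Some efflux pumps are anchored to the actin cortex by scaffold and ERM proteins. Of 6 such genes, 5 were tested and 0 were called by edgeR's quasi-likelihood test or by DESeq2, with a median log2 fold change of -0.25. SLC9A3R1 (NHERF1), a PDZ scaffold, had 51.4 ± 3.93 CPM (SD, n = 3) without CLs and 38.2 ± 4.67 CPM with CLs (SD, n = 3). Its groups did not overlap, and it was the single gene of the list with an unadjusted p below 0.05 (log2 fold change -0.43, adjusted p = 0.554). EZR (ezrin) had a log2 fold change of -0.34 (adjusted p = 0.869) and SLC9A3R2 of -0.25. RDX (radixin), known as an anchor of ABCC2 in the canalicular membrane, had a log2 fold change of 0.35 (adjusted p = 0.904), and its counts were 2635 in CLs-1 but 1402 and 1242 in the other CLs libraries.

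**Figure D4:**
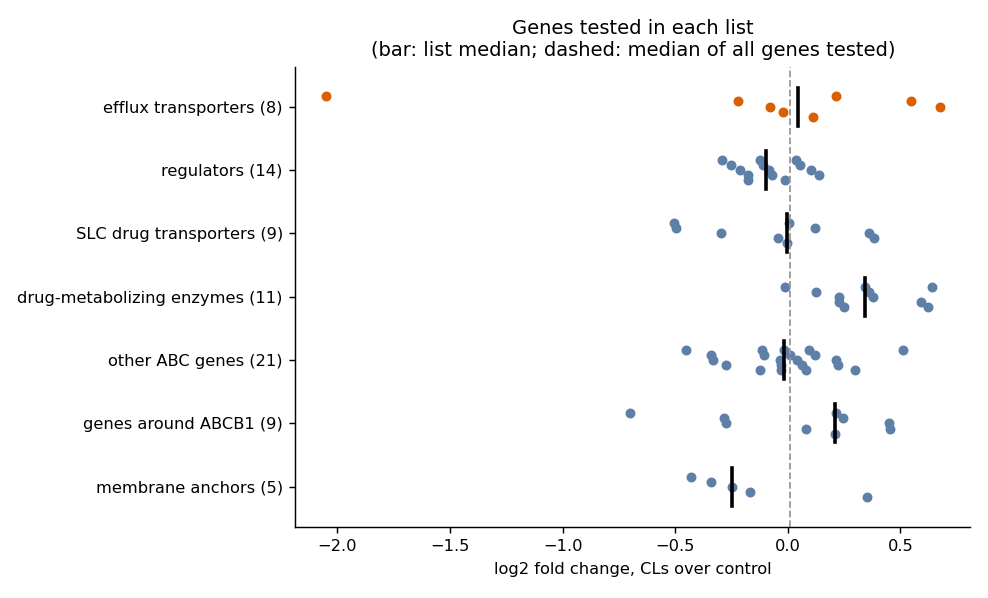
Log2 fold change (CLs over control) of each tested gene in the transporter list (orange) and in the 6 further lists (blue), with the number tested in parentheses; black bars are list medians and the dashed line is the median of all genes tested, 0.01. ABCB1, at -2.05, lies apart from every other point, and the enzymes lie mostly to the right, with a median of 0.34.

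The genes whose profile over the 6 libraries was most like that of ABCB1 were found by the Euclidean distance between log2(CPM + 1) values centred on each gene's mean. The nearest was C10orf54 (VISTA, an immune checkpoint protein of the B7 family), at a distance of 0.38. It had 36.6 ± 6.86 CPM in the controls (SD, n = 3) and 8.77 ± 1.64 CPM after CLs (SD, n = 3), a log2 fold change of -2.06. The next were KRT18P17 (0.561), KRT18 (0.656), DAPK1 (0.657) and KRT8 (0.698), whose log2 fold changes were -1.32, -1.19, -1.21 and -1.21. KRT8 and KRT18 are the keratin pair of simple epithelia, DAPK1 is a death-associated protein kinase, and reads of the pseudogene KRT18P17 may be shared with its parent gene KRT18. Pearson's r with ABCB1 over the 6 libraries was between 0.964 and 0.998 for these 5 genes, with the points falling into the 2 groups. The 5 genes were picked for likeness on these same values, and ABCB1 for its difference between the groups. A high r therefore follows from the selection and is no evidence of a link between the genes. Of the 7 other transporters tested, the nearest was ABCC10, at a distance of 1.81.

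**Figure D5:**
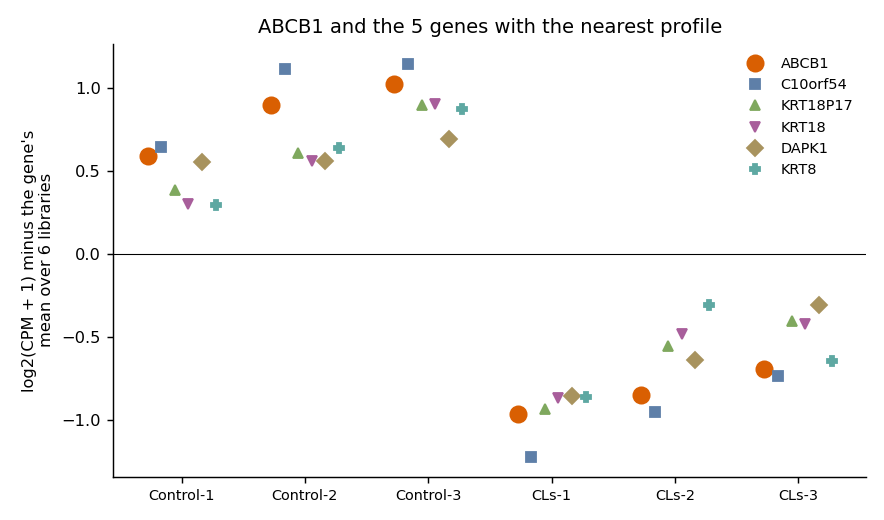
Log2(CPM + 1) minus each gene's mean over the 6 libraries, for ABCB1 (large orange points) and the 5 genes with the nearest profile; libraries of a group have no order. All 6 genes lie above 0 in the 3 controls and below 0 in the 3 CLs libraries, and C10orf54, at a distance of 0.38, follows ABCB1 most closely.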

How the data were processed

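RNA-seq counts of 3 control and 3 CLs-treated libraries, labelled as HepG2 cells, were used. The authors mapped single-end Ion Proton reads with MapSplice, and the deposited values are whole-number counts of reads per gene symbol, without normalization. The submitters' processing notes name HTSeq 0.6.1, hg19 and GRCh37; the annotation, the strand setting and the handling of multi-mapping reads are not given in the sources used here. The members and lists were chosen with earlier results of these data known.

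The 15047 genes left by filterByExpr were tested for condition with the quasi-likelihood functions of edgeR 4.0.16 (R 4.3.3), with TMM factors and Benjamini-Hochberg adjustment. The study's own model, EBSeq, was not installed. Standard errors came from the F statistic. The floor of 3 counts is 0.214 to 0.263 reads per mega-read of the library totals before TMM scaling, and covers counting error only. All 9 members are named; in each further list, every gene called and up to 4 in all with the smallest p. Some genes that this rule names are not reported here. Genes outside this rule given by counts alone (markers and genes at the floor) were chosen after their values were seen. The script was tested on simulated data. Alternatives were DESeq2 1.42.0, other scalings and filters, no fold criterion, a replicate block and single libraries left out. GENCODE lengths matched 86.5% of tested genes.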

Additional observations from a re-analysis of the deposited data

How the results depend on the processing

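The number of genes called, 13, became 105 with DESeq2, 8 with library totals only, 171 with no filter on low counts, 68 with the replicate number as a block, and 3 to 7 when 1 library was left out. Of the 9 transporters, 1 was called, against 2 with no filter (ABCC2 joined, at a log2 fold change of 0.68) and 0 to 1 when 1 library was left out. The log2 fold change of ABCB1 lay between -2.17 and -1.94 in those 6 fits. With library totals only, that of ABCC1 was 0.0042. When 1 library was left out, ABCC1 lay between -0.075 and 0.020, ABCC4 between -0.20 and 0.091 and ABCG2 between -0.064 and 0.81, so these 3 have no stable sign. ABCC2 lay between 0.47 and 0.82, ABCC3 between 0.15 (without CLs-3) and 0.97 (without Control-3), ABCC5 between 0.043 and 0.18 and ABCC10 between -0.26 and -0.18; without CLs-2 ABCC1 was 0.015. The cause of these changes was not tested. Per coding length the control levels were 2.55 (ABCB1), 38.4 (ABCC1), 43.0 (ABCC2), 7.43 (ABCC4), 17.2 (ABCC5), 7.52 (ABCC10) and 5.58 (ABCG2) CPM per kb, and the order of the 9 genes in the controls was the same, while overlaps between neighbours changed; after CLs, ABCC10 ranked 7 by coding length and 5 by exonic length.

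Deviations from the group means correlated at 0.0998, 0.122 and 0.333 between libraries numbered 1, 2 and 3. Only 2 of 3 pairs were over 0.1 and the labels name no pairing, so the main fit had no replicate term. Each library nevertheless correlated best with its own number, which is a hint from the data of a pairing that the labels do not state. The intervals given above do not take such a pairing into account. With the replicate block, the adjusted p from edgeR was 0.00196 for ABCB1, 0.0900 for ABCC2 and 0.110 for ABCC3, and no call among the transporters or the further lists changed. Depth limits ABCB4, which had at most 2 reads in any library.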
